A study of Mus musculus with 24 samples.

Results

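The genes described here are the 3 uncoupling proteins and 7 genes that mark or control heat production in brown and beige fat, 10 of the 24532 genes in the deposited table: *Ucp1*, *Ucp2*, *Ucp3*, *Cidea*, *Dio2*, *Elovl3*, *Prdm16*, *Ppargc1a*, *Ebf2* and *Adrb3*. They were taken from the table by gene symbol, and all 10 were found. RNA was sequenced from the liver, the inguinal white adipose tissue (iWAT), the gastrocnemius muscle (GM) and the hypothalamus of C57BL/6 mice at 8 weeks of age. Control mice (Ctrl) carried loxP-flanked *Crif1* alleles (Crif1flox/flox), and LKO mice carried the same alleles together with Cre recombinase driven by the albumin promoter, which acts in hepatocytes. iWAT, GM and hypothalamus were thus sampled as tissues outside the site of the deletion. Each genotype and tissue had 3 libraries, 24 in all. The labels number the replicates but do not say whether each library came from its own mouse or whether the same mice gave all 4 tissues, so the p-values measure the spread between these libraries, which may be technical.

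Brown and beige adipocytes make heat by letting protons return to the mitochondrial matrix through UCP1 instead of through ATP synthase. Cold or catecholamines start the program at the β3-adrenergic receptor, cAMP and protein kinase A carry the signal, and transcriptional regulators such as PRDM16, EBF2 and PGC-1α set which genes respond. UCP2 and UCP3 are related inner membrane carriers, the former found in many cell types and the latter mainly in muscle and brown fat, and both are linked to fatty acid use and reactive oxygen species rather than to classical heat production. CRIF1, encoded by *Gadd45gip1*, is a protein of the mitochondrial ribosome that is needed to make the respiratory chain subunits encoded in mitochondrial DNA.

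Sequencing depth, read from the ratio of deposited coverage to FPKM (fragments scaled by transcript length and library size), ranged from 4.45 to 8.09 gigabases per library with a median of 5.19. *Gadd45gip1* measured 14.6, 12.5 and 13.6 FPKM in Ctrl liver and 5.40, 2.0 and 2.51 FPKM in LKO liver, a log2 fold change of -1.84 (SE 0.27, limma adjusted p = 0.0036), and its genotypes overlapped in the other tissues. Marker sums followed the tissue labels. The 10 hepatocyte genes summed to between 57811 and 86338 FPKM in liver and to at most 337 FPKM elsewhere, 10 mature white adipocyte genes to between 43094 and 53256 FPKM in iWAT, 10 skeletal muscle genes to between 129730 and 144930 FPKM in GM, and 10 hypothalamic neuropeptide genes to between 2181 and 3040 FPKM in hypothalamus.

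In Ctrl mice the uncoupling proteins were divided between the tissues. *Ucp1*, the uncoupler of brown and beige fat, averaged 39.2 ± 39.1 FPKM in iWAT (mean ± SD, n = 3 here and throughout), 0.347 ± 0.066 FPKM in GM and 0.061 ± 0.070 FPKM in hypothalamus, and was listed at 0 in all 6 liver libraries of either genotype. *Ucp2*, the most widely expressed of the 3, averaged 126 ± 51 FPKM in iWAT, 61.5 ± 14.5 FPKM in hypothalamus, 9.42 ± 0.34 FPKM in liver and 7.95 ± 1.77 FPKM in GM. The Ctrl libraries of liver and GM overlapped for *Ucp2*, while those of hypothalamus and iWAT lay above them, with the lowest iWAT library just above the highest hypothalamus library. *Ucp3*, the muscle form, averaged 39.3 ± 14.5 FPKM in GM and 25.2 ± 4.1 FPKM in iWAT, which overlapped, then 2.82 ± 0.48 FPKM in hypothalamus, and was listed at 0 in every Ctrl liver library.

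Because FPKM is scaled by transcript length, the levels of the 3 genes can be set beside each other within a library. *Ucp3* made up 81.3 ± 7.1% of the summed uncoupling protein FPKM in Ctrl GM, *Ucp2* made up 95.3 ± 1.9% in Ctrl hypothalamus and the whole of the sum in Ctrl liver, and in Ctrl iWAT *Ucp2* made up 66.2 ± 23.3%, *Ucp1* 20.3 ± 21.4% and *Ucp3* 13.5 ± 3.2%. The coding sequences of the GENCODE vM21 transcripts were identical at 77.7% of aligned bases between *Ucp2* and *Ucp3*, at 66.2% between *Ucp1* and *Ucp2* and at 66.6% between *Ucp1* and *Ucp3*. The longest run of identical bases that any pair of these transcripts shared was 24, which is shorter than the sequenced reads.

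**Figure D1:**
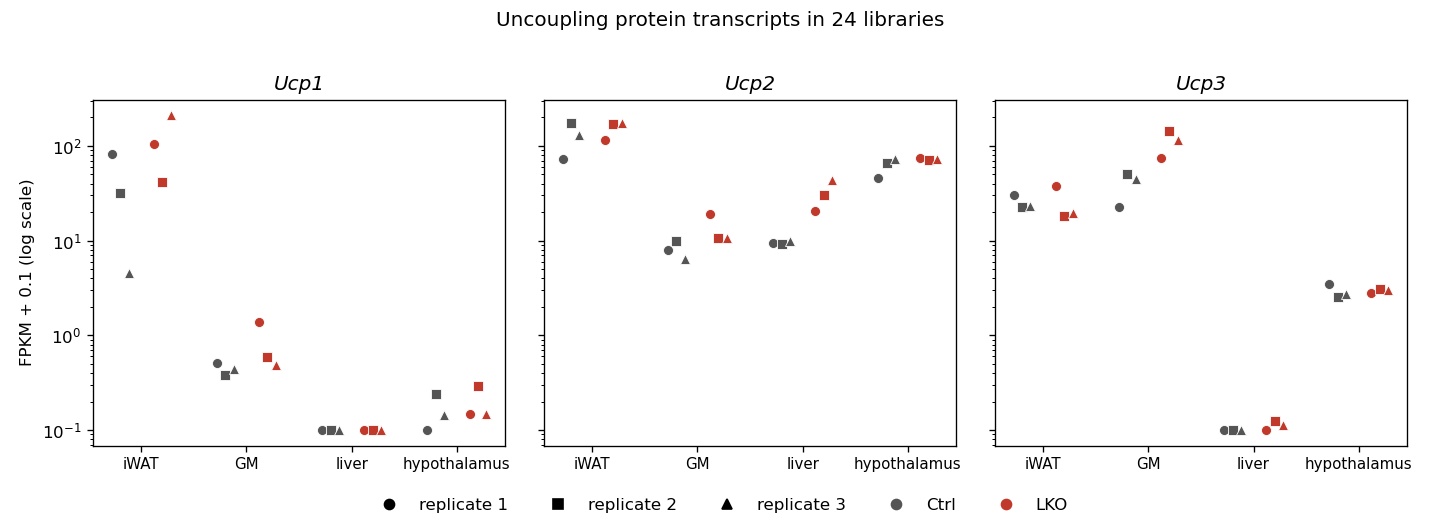
FPKM + 0.1 on a log axis for *Ucp1*, *Ucp2* and *Ucp3* in each of the 24 libraries, by tissue on the horizontal axis, with Ctrl in gray, LKO in red and replicate numbers as symbols. *Ucp1* was at the bottom of the axis in all 6 liver libraries, and the LKO libraries of liver for *Ucp2* and of GM for *Ucp3* sat above all of their Ctrl libraries.

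*Ucp2* and *Ucp3* are neighbours on the same strand of chromosome 7 (mm10), *Ucp3* at chr7:100472991-100486432 and *Ucp2* at chr7:100493358-100499629, with 6925 bases between them, and *Ucp1* lies at chr8:83290348-83298456. The 250 bases before the start of these genes are printed from the RefSeq promoter table (GRCm38.p6) as those of the genes this account turns on, together with those of *Dio2*, the member with a complete cAMP response element in this window. The table matched 6 of the 10 members, *Ucp1*, *Ucp2*, *Ucp3*, *Dio2*, *Prdm16* and *Ppargc1a*. Capitals mark TGACG, the core of the cAMP response element, and AGGTCA, the half-site of nuclear receptors, on either strand.
Ucp1, chr8:83290098-83290347, plus strand: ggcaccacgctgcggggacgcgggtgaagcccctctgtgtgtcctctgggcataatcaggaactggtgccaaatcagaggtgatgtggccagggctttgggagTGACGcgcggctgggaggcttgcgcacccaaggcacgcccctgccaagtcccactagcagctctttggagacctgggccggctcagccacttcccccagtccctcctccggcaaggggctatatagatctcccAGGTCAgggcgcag
Ucp2, chr7:100493108-100493357, plus strand: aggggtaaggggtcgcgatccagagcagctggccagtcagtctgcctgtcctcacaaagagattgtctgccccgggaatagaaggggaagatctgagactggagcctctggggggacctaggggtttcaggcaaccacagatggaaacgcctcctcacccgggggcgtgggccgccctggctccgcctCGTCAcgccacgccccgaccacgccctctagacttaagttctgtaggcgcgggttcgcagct
Ucp3, chr7:100472741-100472990, plus strand: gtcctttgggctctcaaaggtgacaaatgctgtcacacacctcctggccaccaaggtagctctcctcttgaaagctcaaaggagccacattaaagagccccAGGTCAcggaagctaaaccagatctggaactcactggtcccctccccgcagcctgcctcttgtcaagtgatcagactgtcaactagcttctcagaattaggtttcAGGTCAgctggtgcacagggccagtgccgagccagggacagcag
Dio2, chr12:90739039-90739288, minus strand: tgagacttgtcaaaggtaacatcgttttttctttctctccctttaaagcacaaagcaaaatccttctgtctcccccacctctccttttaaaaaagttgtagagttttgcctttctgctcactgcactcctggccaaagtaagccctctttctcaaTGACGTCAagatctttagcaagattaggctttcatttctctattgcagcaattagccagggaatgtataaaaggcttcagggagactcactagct

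TGACG began 147 bases before the start of *Ucp1*, and on the opposite strand 62 bases before that of *Ucp2* and 49 bases before that of *Ppargc1a*. It occurs on either strand in 17.8% of the 32851 promoters of the table. *Dio2* held the palindrome TGACGTCA, which includes TGACG on both strands, 95 bases before its start, and 1.55% of all promoters hold it. AGGTCA began 149 and 44 bases before the start of *Ucp3* and 14 bases before that of *Ucp1*, and 14% of all promoters hold at least 1 copy. The direct repeat AGGTCANAGGTCA was in 0 of the 6 windows and in 0.0335% of all promoters. These matches describe letters in a short window, and enhancers outside it were not searched.

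The first comparison asked whether the loss of *Crif1* in hepatocytes came with a different thermogenic program in iWAT. In LKO iWAT, *Elovl3* was the only member past the unadjusted criterion, a fold change of at least 1.5 with an unadjusted limma p under 0.05, which 3.25% of the 12288 genes tested passed. It reached the minimum level for testing only in the LKO libraries, so it could enter the test only by being higher there. *Ucp1*, *Cidea* and *Dio2* had higher means in LKO, but their libraries spread widely and the genotypes overlapped. *Prdm16*, *Adrb3*, *Ucp2* and *Ucp3* had log2 fold changes between -0.06 and 0.35. No gene of the tissue passed the adjusted criterion, the same fold change with an adjusted limma p under 0.05 (0% of genes tested), while 15% of them, 1842 genes, had an unadjusted p under 0.05. In a limma fit of all 24 libraries together, 317 iWAT genes passed the adjusted criterion. That fit shares the variance of a gene over tissues that differ in spread. Its p-values therefore do not measure the spread in iWAT alone.

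*Ucp1* measured 81.6, 31.4 and 4.50 FPKM in Ctrl replicates 1, 2 and 3 and 106, 41.1 and 211 FPKM in LKO replicates 1, 2 and 3. Ctrl replicate 1 was above LKO replicate 2, and Ctrl replicate 3 was far below every other library. The log2 fold change was 2.01 (SE 1.03, limma unadjusted p = 0.096, adjusted p = 0.418), on the log2(FPKM + 1) scale used for every fold change here, which understates changes of low genes. The value depended on single libraries, being 0.93 without Ctrl replicate 3, 1.45 without LKO replicate 3 and 2.88 without Ctrl replicate 1. Dropping Ctrl replicate 1 took it past the unadjusted criterion (adjusted p = 0.195), as did the fit of all 24 libraries (adjusted p = 0.062). In the latter the SE was 0.61, from a variance shared with tissues where *Ucp1* was low.

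*Ucp2* measured 73.3, 174 and 131 FPKM in Ctrl and 116, 171 and 176 FPKM in LKO iWAT, with a log2 fold change of 0.35 (SE 0.33, limma adjusted p = 0.654). It was 0.003 without Ctrl replicate 1 and 0.62 without Ctrl replicate 2. *Ucp3* measured 29.9, 22.7 and 22.9 FPKM in Ctrl and 38.1, 18.2 and 19.7 FPKM in LKO iWAT, with a log2 fold change of -0.06 (SE 0.28, limma adjusted p = 0.948). Both overlapped between genotypes, and for *Ucp3* replicate 1 was the highest library of each genotype. Muscle RNA was present in iWAT, with skeletal muscle marker sums of 808, 161 and 117 FPKM in Ctrl and 180, 1201 and 91.8 FPKM in LKO. Taken as a share of the marker sum in GM, at most 0.881%, these sums would carry between 0.033 and 0.981 FPKM of *Ucp3* into an iWAT library, beside a lowest measured value of 18.2 FPKM. Such estimates assume that all of a marker sum and of the gene comes from the source tissue in its proportions there, and the part of muscle RNA in iWAT *Ucp3* was not tested.

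Among the effectors, *Cidea*, a lipid droplet protein abundant in brown fat, measured 152, 97.5 and 40.2 FPKM in Ctrl and 236, 115 and 139 FPKM in LKO iWAT. Replicate 1 was the highest library of each genotype, and Ctrl replicate 1 exceeded 2 of the 3 LKO libraries. The log2 fold change was 0.88 (SE 0.50, limma adjusted p = 0.455), and 0.35 without Ctrl replicate 3. *Dio2*, the deiodinase that makes active thyroid hormone inside brown adipocytes, was low at 1.01, 0.584 and 0.444 FPKM in Ctrl and 2.18, 0.670 and 2.66 FPKM in LKO. LKO replicates 1 and 3 were above every Ctrl library and LKO replicate 2 was not, with a log2 fold change of 0.70 (SE 0.30, limma unadjusted p = 0.058, adjusted p = 0.352), and of 1.19 (adjusted p = 0.359) with a pseudocount of 0.1. Leaving out LKO replicate 2 took *Dio2* past the unadjusted criterion (log2 fold change 1.04, limma unadjusted p = 0.0013), and leaving out Ctrl replicate 1 did so for *Cidea* (1.3, limma unadjusted p = 0.029). In the fit of all 24 libraries *Dio2* and *Cidea* passed it too (limma adjusted p = 0.053 and 0.194). Their SEs there, 0.20 and 0.36, came from a variance shared with the other tissues.

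*Elovl3*, a fatty acid elongase induced by cold in brown fat, measured 0.508, 0.548 and 0 FPKM in Ctrl and 2.24, 1.04 and 3.91 FPKM in LKO iWAT. All LKO libraries were above all Ctrl libraries, which was the case in the same direction for 9.76% of genes tested. The log2 fold change was 1.26 (SE 0.34, limma unadjusted p = 0.0078, adjusted p = 0.172), and the adjusted p ranged from 0.042 in the fit of all 24 libraries to 0.422 without LKO replicate 3. With a pseudocount of 0.1 in place of 1 the log2 fold change was 2.69 (SE 0.82, limma adjusted p = 0.213), so its size depended on the pseudocount. The minimum for testing was 1 FPKM, which no Ctrl library reached. Hepatocyte marker sums were also higher in LKO iWAT, 37.7, 60.4 and 60.7 FPKM against 28.4, 16.8 and 17.0 FPKM in Ctrl. As a share of the sum in LKO liver these would carry at most 0.023 FPKM of *Elovl3* into LKO iWAT, and the part of liver RNA in the result was not tested.

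Among the regulators, *Prdm16*, the coregulator that commits precursors to the brown fate, measured 2.74, 1.76 and 2.24 FPKM in Ctrl and 3.15, 2.01 and 2.32 FPKM in LKO iWAT, overlapping groups with a log2 fold change of 0.10 (SE 0.16, limma adjusted p = 0.804). *Ppargc1a*, which encodes the coactivator PGC-1α, measured 3.19, 2.75 and 2.2 FPKM in Ctrl and 1.92, 2.13 and 2.22 FPKM in LKO. LKO replicate 3 was just above Ctrl replicate 3, the only crossing of the groups, and the log2 fold change was -0.26 (SE 0.12, limma adjusted p = 0.382). *Ebf2*, a transcription factor of brown and beige precursors, measured 13.4, 14.5 and 14.2 FPKM in Ctrl and 11.3, 12.6 and 11.9 FPKM in LKO. Every LKO library was below every Ctrl library, as for 11% of genes tested, but the log2 fold change of -0.22 (SE 0.07, limma unadjusted p = 0.023, adjusted p = 0.251) was under 1.5-fold. *Adrb3*, the receptor through which catecholamines act on adipocytes, was the member with the highest level in Ctrl iWAT at 211, 205 and 289 FPKM, and measured 229, 264 and 290 FPKM in LKO, with overlapping groups and a log2 fold change of 0.16 (SE 0.16, limma adjusted p = 0.675).

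**Figure D2:**
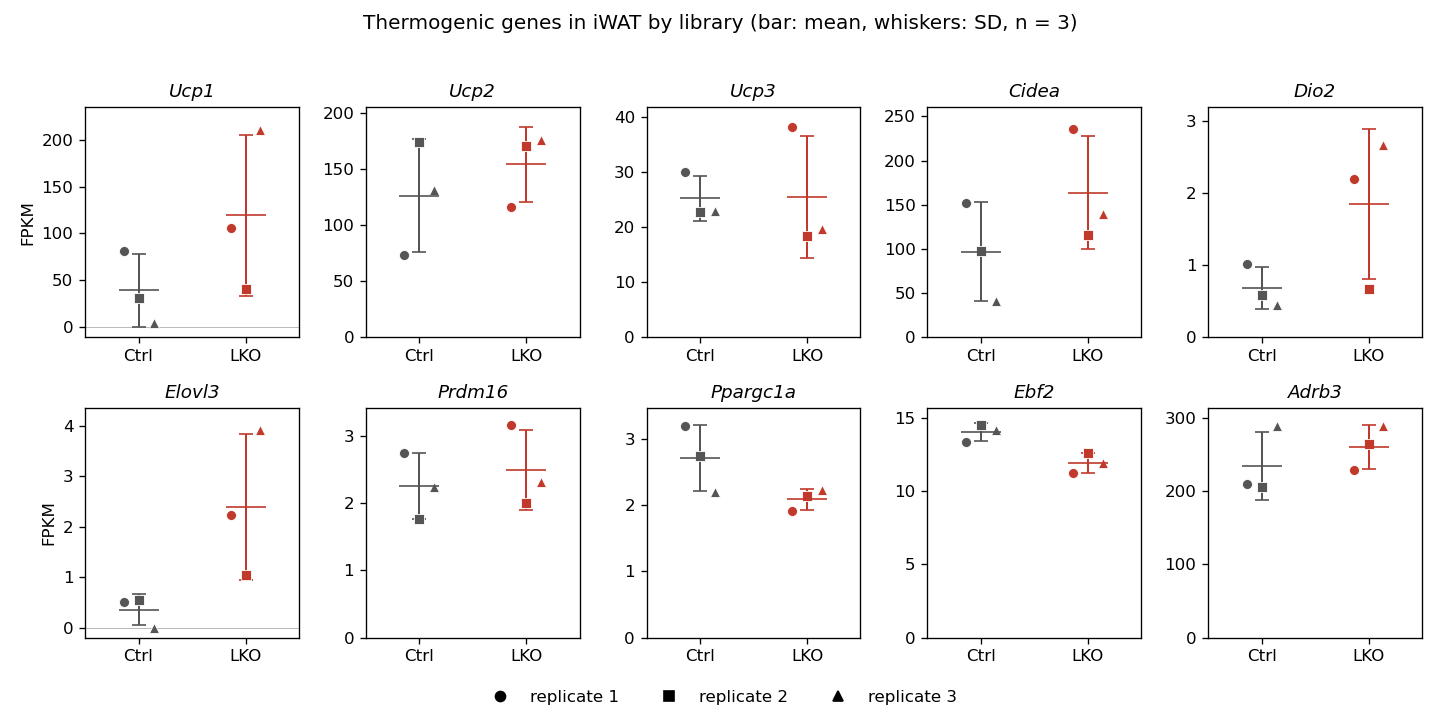
FPKM of the 10 genes in the iWAT libraries, 1 panel per gene with its own linear axis, Ctrl in gray and LKO in red, replicate numbers as symbols, bars at the mean and whiskers of 1 SD (n = 3). Only *Elovl3* and *Ebf2* had genotypes that did not overlap, and Ctrl replicate 3 was the lowest library for *Ucp1*, *Cidea*, *Dio2* and *Elovl3*.

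The iWAT libraries were ordered unevenly for genes of this kind. Of 26 tested genes of a brown and beige adipocyte list that leaves out the members, Ctrl replicate 3 was the lowest of the 6 libraries for 14 (53.8%, against 9.1% of all genes tested), LKO replicate 3 was the highest for 12 (46.2%, against 23.8%) and LKO replicate 1 for 8 (30.8%, against 11.4%). Mature white adipocyte sums ranged from 46034 to 51405 FPKM in Ctrl and from 43094 to 53256 FPKM in LKO, and of these 10 markers 0 passed as higher. Of the 10 macrophage genes tested, 0 passed in either direction, with sums of 724, 1600.5 and 1181 FPKM in Ctrl and 698, 824 and 899 FPKM in LKO. Of these 10 genes 0 had a positive log2 fold change, with a median of -0.425. Of 8 monocyte and neutrophil genes 2 passed as higher, *S100a9* (1.11 ± 0.41 and 6.30 ± 3.67 FPKM) and *S100a8* (1.72 ± 0.22 and 4.82 ± 2.56 FPKM), while the sums of that list were 583, 1509.5 and 967 FPKM in Ctrl and 615, 645 and 770.4 FPKM in LKO. Of 5 tested blood genes 4 passed as higher, with sums of 479, 1311 and 978 FPKM in Ctrl and 856, 993 and 1755 FPKM in LKO, and of 9 preadipocyte and stromal genes 0 passed as higher and 1 as lower. Of these 9 genes 0 had a positive log2 fold change, against 47.6% of all genes tested, with a median of -0.33 against -0.01. Of all genes tested in iWAT, 1.95% passed as higher and 1.29% as lower. *Zic1*, a positional marker of interscapular brown fat, was between 0 and 0.032 FPKM in all 6 iWAT libraries. Of the 6 genes of its marker list 4, not *Zic1*, reached the minimum for testing. Of these 4 genes 0 passed, and their median log2 fold change was -0.26. The part of the other marker sums in the results was not tested, and in bulk RNA a different number of beige adipocytes and a different amount of RNA per adipocyte cannot be told apart.

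The 5 genes whose pattern over the 6 iWAT libraries lay nearest to that of *Ucp1*, by the root mean square difference of centred log2 values, were *Cpt1b*, which admits fatty acids to muscle and brown fat mitochondria, *Cox7a1*, a cytochrome c oxidase subunit of the same tissues, *Fabp3*, a fatty acid binding protein, *Dag1* and *Apoo-ps*. *Cpt1b* measured 14.2, 7.25 and 1.73 FPKM in Ctrl and 18.4, 10.1 and 23.4 FPKM in LKO, the same order of libraries as *Ucp1*. *Cox7a1* measured 48.0, 23 and 6.47 FPKM in Ctrl and 34.3, 40.9 and 66.6 FPKM in LKO. None of the 5 passed either criterion. They were picked by this pattern, genotype difference included, so their likeness to *Ucp1* follows from the choice.

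Of the brown and beige list in iWAT, 5 of 26 tested genes passed the unadjusted criterion as higher and 0 as lower, with a median log2 fold change of 0.38 against -0.01 over all genes tested, of which 1.95% passed as higher. Of these 5 genes 1, *Cited1*, reached the minimum of 1 FPKM only in LKO libraries and so could enter the test only by being higher there. *Cited1*, used as a beige marker, measured 0.397, 0.686 and 0.832 FPKM in Ctrl and 4.75, 2.85 and 1.52 FPKM in LKO (log2 fold change 1.23, SE 0.29, limma adjusted p = 0.151). *Cox8b*, another oxidase subunit of brown fat and muscle, averaged 192 ± 77 FPKM in Ctrl and 326 ± 73 FPKM in LKO, with a limma adjusted p of 0.281. *Slc27a1*, a fatty acid transporter, averaged 200.2 ± 40.0 and 349 ± 122 FPKM, with a limma adjusted p of 0.313. LKO replicate 3, the library with the highest *Ucp1*, was the highest for *Cox8b* and *Slc27a1* and the lowest of the LKO libraries for *Cited1*.

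In the adrenergic and cAMP list, 2 of 27 tested genes passed as higher and 1 as lower in iWAT, against 1.95% and 1.29% of all genes tested. *Pde4d*, a phosphodiesterase that degrades cAMP, averaged 3.76 FPKM in Ctrl and 7.75 FPKM in LKO (log2 fold change 0.90, SE 0.15, limma adjusted p = 0.093), *Adcy4*, an adenylyl cyclase, averaged 6.64 and 11.6 FPKM, and *Map2k6*, a kinase upstream of p38, averaged 4.07 and 1.73 FPKM. For *Map2k6* the lowest Ctrl library, 3.33 FPKM, lay only just above the highest LKO library, 3.32 FPKM. Among 33 tested transcription factors and coregulators 1 passed as higher, *Klf11* (5.62 ± 0.50 against 9.14 ± 1.23 FPKM), and 1 as lower, *Pparg*, the master regulator of adipocytes (145.5 ± 16.4 against 94.2 ± 13.7 FPKM, log2 fold change -0.63, limma adjusted p = 0.130). The median log2 fold change of these regulators was -0.07.

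Among PPAR target genes of fatty acid use, 27 of 28 tested genes had a positive log2 fold change in iWAT, as did 47.6% of all genes tested, with a median of 0.36, and 2 passed as higher, against 1.95% of all genes tested. *Pdk4*, the kinase that shuts off pyruvate dehydrogenase when fatty acids are used, averaged 64.3 ± 8.8 FPKM in Ctrl and 159 ± 35 FPKM in LKO (log2 fold change 1.28, SE 0.17, limma adjusted p = 0.088). *Thrb*, a thyroid hormone receptor and the only one of 8 tested genes of thyroid hormone handling to pass, averaged 3.84 FPKM in Ctrl and 9.16 FPKM in LKO (log2 fold change 1.08, SE 0.12, limma adjusted p = 0.082). Of 13 tested genes of UCP1-independent heat production 1 passed as higher, the calcium pump *Atp2a3* (5.38 and 9.45 FPKM), a single call where 1.95% of all genes passed, and of 14 mitochondrial carriers related to the uncoupling proteins and 3 other very long chain elongases 0 passed. Of 9 tested lipid droplet genes *G0s2*, an inhibitor of lipolysis, passed as lower (394 ± 155 and 239 ± 35 FPKM, limma unadjusted p = 0.043, adjusted p = 0.313), a call that was lost after median-ratio scaling and after quantile normalization. *Lep*, which encodes the adipocyte hormone leptin and was picked after its values were seen, passed as lower among the white adipocyte markers, at 198, 198 and 159 FPKM in Ctrl and 145, 55.4 and 51.7 FPKM in LKO (log2 fold change -1.29, limma adjusted p = 0.204).

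In GM, *Ucp3* and *Ucp2* were the members past the unadjusted criterion, both higher in LKO, among the 6 members with enough signal to be tested. The criterion was passed by 0.901% of the 10877 genes tested, and 0 genes passed the adjusted limma criterion (0%), while 743 genes (6.83%) had an unadjusted p under 0.05. In the fit of all 24 libraries, where the variance is shared between tissues, 22 genes of GM passed it, *Ucp3* among them. *Ppargc1a*, *Cidea*, *Adrb3* and *Ebf2* did not pass, and *Ucp1*, *Dio2*, *Elovl3* and *Prdm16* reached 1 FPKM in at most 2 libraries and were not tested.

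*Ucp3* measured 22.7, 50.0 and 45.2 FPKM in Ctrl GM and 73.9, 146 and 114 FPKM in LKO GM. The lowest LKO library exceeded the highest Ctrl library, as in the same direction for 4.38% of genes tested, and replicate 1 was the lowest in both genotypes. The log2 fold change was 1.5 (SE 0.34, limma unadjusted p = 0.0028, adjusted p = 0.455), it stayed between 1.16 and 1.77 when single libraries were left out, and the adjusted p was 0.013 when all 24 libraries shared 1 fit. Summed over the family, uncoupling protein FPKM in GM averaged 47.6 ± 15.0 in Ctrl and 126 ± 31 in LKO, and *Ucp3* made up 87.5 ± 7.9% of the LKO sum.

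*Ucp2* measured 7.78, 9.81 and 6.27 FPKM in Ctrl GM and 19.0, 10.7 and 10.6 FPKM in LKO GM, again without overlap, with a log2 fold change of 0.66 (SE 0.24, limma unadjusted p = 0.026, adjusted p = 0.654). LKO replicate 1 was far above the other LKO libraries, which lay just above Ctrl replicate 2. The same library had the highest sum of lymphocyte markers, 75.8 FPKM against 21.4, 19.3 and 1.37 FPKM in Ctrl and 1.33 and 1.61 FPKM in the other LKO libraries, and of macrophage markers, 64.9 FPKM against at most 47.9 FPKM elsewhere. Without it the log2 fold change of *Ucp2* was 0.40, under 1.5-fold, and without Ctrl replicate 1 or 3 it was 0.65 and 0.52 (limma unadjusted p = 0.066 and 0.085), so the call rested on these libraries. Blood markers, of which 1 of 3 tested passed as higher, summed to 68.7, 149.9 and 199.8 FPKM in Ctrl GM and 125, 216 and 192 FPKM in LKO GM, and *Hba-a2*, a globin gene with a near-identical copy, was at 0.149, 0.178 and 91.4 FPKM in Ctrl and 118, 99.5 and 86.6 FPKM in LKO. The part of these cells in the result was not tested.

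*Ppargc1a* measured 6.30, 6.90 and 6.28 FPKM in Ctrl GM and 5.49, 10.5 and 8.83 FPKM in LKO GM, with LKO replicate 1 below and the other 2 above every Ctrl library (log2 fold change 0.27, SE 0.20, limma adjusted p = 0.876). Its log2 fold change was 0.51 without LKO replicate 1 (limma adjusted p = 0.126) and 0.09 without LKO replicate 2. *Cidea* measured 1.81, 2.93 and 0.898 FPKM in Ctrl and 4.24, 1.39 and 2.28 FPKM in LKO, and *Adrb3* measured 1.00, 3.28 and 0.247 FPKM in Ctrl and 3.29, 0.154 and 0.234 FPKM in LKO. Both genes were highest in LKO replicate 1 and Ctrl replicate 2, the GM libraries with the most white adipocyte marker RNA, whose sums were 706, 917 and 309 FPKM in Ctrl and 1071, 324 and 398 FPKM in LKO. As a share of the iWAT sum, these would carry 1.39, 1.81 and 0.611 FPKM of *Cidea* into the Ctrl and 3.54, 1.07 and 1.32 FPKM into the LKO libraries. The same arithmetic gives 3.39, 4.4 and 1.49 FPKM of *Adrb3* in Ctrl and 5.65, 1.71 and 2.1 FPKM in LKO, above the measured value in all 6 libraries, so such estimates can overstate what was carried, and the part of adipocyte RNA in both genes was not tested. *Ebf2* stayed between 0.926 and 1.35 FPKM in all 6 libraries.

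Of the untested members in GM, *Ucp1* measured 0.416, 0.286 and 0.338 FPKM in Ctrl and 1.3, 0.484 and 0.387 FPKM in LKO, *Dio2* between 0.184 and 0.318 FPKM and *Prdm16* between 0.466 and 0.747 FPKM over both genotypes. *Elovl3* measured 2.51, 0.374 and 1.63 FPKM in Ctrl and 0.322, 0.300 and 0.286 FPKM in LKO, so that every LKO library was below every Ctrl library, as for 7.2% of genes tested. With no filter on low values its log2 fold change was -0.84 (limma unadjusted p = 0.043, adjusted p = 0.86). It then passed the unadjusted criterion as lower, as did 40 of 18429 genes. Hepatocyte marker sums in the same libraries were 337, 25.3 and 257 FPKM in Ctrl and 120, 16.3 and 48.7 FPKM in LKO, and were highest in the 2 libraries with the most *Elovl3*. As a share of the sum in liver of the same genotype these would carry 1.73, 0.130 and 1.32 FPKM of *Elovl3* into Ctrl GM, and at most 0.046 FPKM into LKO GM. The part of liver RNA in the difference was not tested.

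The 5 genes nearest to *Ucp3* over the GM libraries were *Mt2*, a metallothionein, *Pdk4*, *Nr4a3*, an early response nuclear receptor, *Map3k6* and *Arrdc2*. *Mt2* measured 8.08, 16.6 and 13.8 FPKM in Ctrl and 20.6, 48.2 and 31.1 FPKM in LKO, the same order of libraries as *Ucp3*. *Pdk4* measured 58.3, 176 and 165 FPKM in Ctrl and 359.7, 690.4 and 609.6 FPKM in LKO (log2 fold change 2.15, SE 0.44, limma unadjusted p = 0.0016, adjusted p = 0.430). In both genes replicate 1 was the lowest library of each genotype, as it was for *Ucp3*. Being picked by their pattern over these libraries, the 5 genes had to resemble *Ucp3* in order and direction.

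Of the GM lists, that of PPAR target genes of fatty acid use held the most calls, 7 higher and 0 lower of 27 tested by the unadjusted criterion, with a median log2 fold change of 0.18 against -0.03 over all genes tested, of which 0.579% passed as higher and 0.322% as lower. *Angptl4*, a secreted inhibitor of lipoprotein lipase, averaged 4.08 ± 1.70 FPKM in Ctrl and 16.3 ± 7.9 FPKM in LKO (log2 fold change 1.73, SE 0.34, limma adjusted p = 0.379), and *Acot2*, a mitochondrial thioesterase, averaged 5.29 and 11.2 FPKM. *Acot2* and *Plin5*, a lipid droplet coat protein that contacts mitochondria (14.2 and 22.2 FPKM), were also the 2 of 18 tested brown and beige genes to pass. Of 9 lipid droplet genes *G0s2* passed as lower (36.3 and 11 FPKM) and *Plin4* as higher with *Plin5* (64.7 and 106 FPKM). The carrier *Slc25a34* was the single call of 13 carriers (5.05 and 9.38 FPKM), *Nrip1*, a corepressor of oxidative genes, the single call of 33 regulators (2.26 and 3.95 FPKM), and *Nr4a3* the single call of 25 adrenergic genes. Of 15 genes of UCP1-independent heat production, 8 of thyroid hormone handling and 2 elongases, 0 passed.

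In liver, where the deletion was made, all 4 members expressed well enough to be tested passed the adjusted criterion, *Ucp2* and *Ppargc1a* as higher and *Elovl3* and *Adrb3* as lower in LKO. The share of all 10956 genes tested that passed was 27.4%, 23.9% as higher and 3.5% as lower. The deposited FPKM of liver were shifted upward in LKO as a whole, with a median log2 fold change of 0.33 over all genes tested, and of the genes past the adjusted criterion 2622 were higher and 384 lower. After median-ratio scaling, which moves this median to -0.01, 1071 were higher and 825 lower, so the scaled values are given beside the deposited ones.

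*Elovl3*, which liver also expresses strongly, measured 441, 305 and 451 FPKM in Ctrl and 33.4, 36.3 and 12.8 FPKM in LKO. Every LKO library was far below every Ctrl library, and 8.1% of genes tested were without overlap in this direction. Its log2 fold change was -3.92 (SE 0.38, limma adjusted p = 0.0010) on the deposited scale and -4.30 (adjusted p = 0.0020) after scaling, the largest of the members tested in the 4 tissues. The gene overlaps *Pitx3* on the opposite strand of chromosome 19, and the library kit does not mark strand, so reads of the shared part cannot be assigned to either gene. Annotated genes on the opposite strand also overlap *Ucp3*, *Adrb3*, *Cidea*, *Dio2*, *Prdm16*, *Ppargc1a* and *Ebf2*, to which the same limit applies, but not *Ucp1* or *Ucp2*.

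*Ucp2* measured 9.30, 9.16 and 9.81 FPKM in Ctrl liver and 20.6, 30.2 and 43.7 FPKM in LKO liver. The Ctrl libraries lay within 1 FPKM of each other, the LKO libraries ranged more widely, and the genotypes did not overlap, as for 53% of genes tested in this direction. The log2 fold change was 1.58 (SE 0.24, limma adjusted p = 0.0041), and 1.2 (adjusted p = 0.0044) after scaling. Markers of immune cells were higher in the same libraries. For the marker lists that follow, 23.9% of all genes tested passed as higher and 3.5% as lower. These shares were 9.78% and 7.53% after scaling, and 8.21% and 6.81% after quantile normalization. All 12 genes of the macrophage and Kupffer cell list passed as higher (11 after scaling), with sums of 217, 210.2 and 226 FPKM in Ctrl and 465, 521 and 697 FPKM in LKO. All 5 tested monocyte and neutrophil genes did too (4 after scaling), of which 2, *Csf3r* and *S100a8*, reached the minimum for testing only in LKO libraries, with sums of 57.5, 54.1 and 61.3 FPKM in Ctrl and 152, 151 and 201 FPKM in LKO. LKO replicate 3 was the highest library for *Ucp2* and for both lists. Of 8 tested preadipocyte and stromal markers 6 rose (5 after scaling, 3 after quantile normalization), among them *Col3a1* (5.25 and 24.4 FPKM) and *Dcn* (57.4 and 143 FPKM), with sums from 92.1 to 104 FPKM in Ctrl and from 203 to 239.8 FPKM in LKO. Of 5 tested genes of a mammary epithelial list 4 rose (3 after scaling, 2 after quantile normalization), and 2 of these 4 and 2 of the 6 stromal genes reached the minimum for testing only in LKO libraries. Among the 4 was the keratin *Krt8* (128 and 434 FPKM). Every Ctrl liver library held it at 108 FPKM or more, so this list does not single out a cell type in liver. Of 10 hepatocyte markers 2 fell, *Serpina1c* (4883 and 2368 FPKM) and *Apoa2* (10693 and 5605 FPKM), and 1 rose (2 and 0 after scaling, but 0 and 1 after quantile normalization, with the median of the list at -0.53 and 0.09), with sums of 76764, 79479 and 76558 FPKM in Ctrl and 86338, 71938 and 57811 FPKM in LKO. The part of these cells in the result was not tested.

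The 5 genes nearest to *Ucp2* over the 6 liver libraries were *Ifi30*, a lysosomal reductase of antigen presentation, *Ddr1*, *Relb*, a subunit of NF-κB, *Grn*, which encodes progranulin, and *Ybx3*. *Ifi30* measured 13, 11.7 and 12.5 FPKM in Ctrl and 30.8, 39.8 and 57.9 FPKM in LKO, with LKO replicate 3 highest, as for *Ucp2*. This likeness follows from the way the 5 genes were picked.

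*Ppargc1a* measured 1.39, 1.63 and 1.44 FPKM in Ctrl liver and 2.89, 3.21 and 3.09 FPKM in LKO liver, with a narrow spread in each genotype. Its log2 fold change was 0.71 (SE 0.10, limma adjusted p = 0.0034) on the deposited scale, but 0.44 (adjusted p = 0.016) after median-ratio scaling, which is under 1.5-fold, and 0.30 (adjusted p = 0.060) after quantile normalization. *Adrb3* measured 7.23, 4.88 and 5.28 FPKM in Ctrl and 2.93, 2.08 and 1.77 FPKM in LKO, all LKO libraries below all Ctrl libraries. Its log2 fold change was -1.06 (SE 0.18, limma adjusted p = 0.0060), and -1.36 (adjusted p = 0.0063) after scaling. White adipocyte marker sums in liver were 19.2, 21.8 and 21.1 FPKM in Ctrl and 39.6, 39.8 and 43.4 FPKM in LKO, and their part in the result was not tested.

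The other 6 members were under 1 FPKM in every liver library. *Cidea* was listed at 0 in all Ctrl libraries and at 0.031, 0.317 and 0.074 FPKM in LKO, *Prdm16* measured 0.057, 0.041 and 0.077 FPKM in Ctrl and 0.106, 0.196 and 0.626 FPKM in LKO, without overlap between genotypes, as in this direction for 53% of the genes tested in liver. *Ucp3* was listed at 0 in Ctrl and at most at 0.024 FPKM in LKO, *Ebf2* at most at 0.020 FPKM, and *Ucp1* and *Dio2* at 0 throughout. Of the uncoupling proteins, *Ucp2* alone had a level that could be compared in liver.

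**Figure D3:**
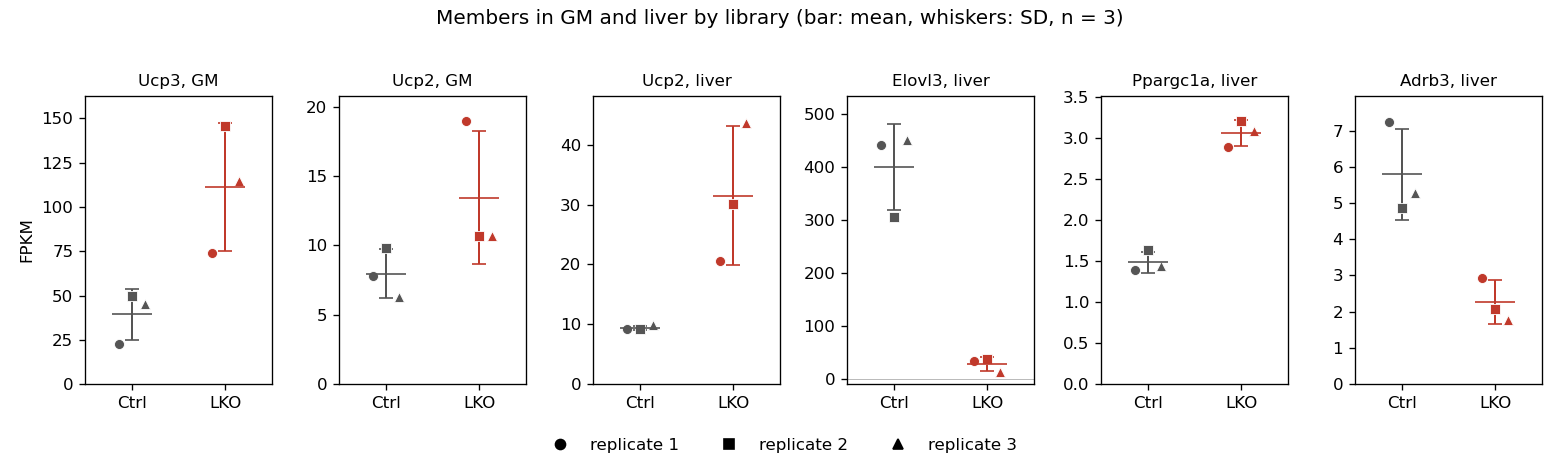
FPKM by library of the members past a criterion in GM (*Ucp3*, *Ucp2*) and liver (*Ucp2*, *Elovl3*, *Ppargc1a*, *Adrb3*), on linear axes, with Ctrl in gray, LKO in red, replicate numbers as symbols, bars at the mean and whiskers of 1 SD (n = 3). The genotypes did not overlap in any of the 6 panels, and *Elovl3* and *Adrb3* were lower in LKO.

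Around the members, liver genes of fatty acid use and lipid storage held many calls. By the adjusted criterion 15 of 29 tested PPAR target genes rose and 1 fell, with a median log2 fold change of 0.65 against 0.33 over all genes tested, of which 23.9% rose and 3.5% fell. After median-ratio scaling 10 rose and 2 fell, against 9.78% and 7.53% of all genes tested. *Pdk4* averaged 3.01 ± 1.19 FPKM in Ctrl and 97.7 ± 75.9 FPKM in LKO (log2 fold change 4.20, SE 0.71, limma adjusted p = 0.0055), *Cd36*, a fatty acid transporter, averaged 5.80 and 63.2 FPKM, and *Acot2* averaged 3.43 and 58.5 FPKM. Of the CIDE family and lipid droplet genes 7 of 9 rose and 0 fell, with a median of 1.66, and 6 rose after scaling. *G0s2*, which had lower means in LKO in iWAT and GM, rose in liver and averaged 20.8 ± 6.4 FPKM in Ctrl and 93.0 ± 7.4 FPKM in LKO, with log2 fold changes of 2.15 on the deposited scale (SE 0.20, limma adjusted p = 0.0010) and 1.76 after scaling. Also among them, *Cidec*, the relative of *Cidea* that is typical of white adipocytes, measured 0.565, 1.10 and 0.704 FPKM in Ctrl and 5.06, 12.4 and 13.8 FPKM in LKO (log2 fold change 2.58, SE 0.33, limma adjusted p = 0.0022).

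*Fgf21*, which encodes a hormone that acts on adipose tissue and brain, measured 0.281, 1.65 and 0.588 FPKM in Ctrl liver and 14.2, 66.4 and 37.5 FPKM in LKO liver (log2 fold change 4.28, SE 0.53, limma adjusted p = 0.0020). It was among the 6 of 18 tested brown and beige genes that rose, but after scaling 3 rose and 2 fell and the median of the list turned from 0.23 to -0.14. *Bmp8b* (0.021 and 2.78 FPKM), 1 of the 6, reached the minimum for testing only in LKO libraries. For this list and those that follow, 23.9% of all genes tested rose on the deposited scale and 9.78% after scaling, and whether a list's share differed from these was not tested. Of 8 tested genes of thyroid hormone handling 2 fell, *Dio1*, the deiodinase of liver and a relative of *Dio2*, from 60.1 ± 6.0 to 16.7 ± 3.0 FPKM, and *Thrsp*, a lipogenic target of thyroid hormone, from 144 to 39.7 FPKM, and after scaling 4 fell. Of 24 regulators 3 rose, among them *Pparg* (3.26 and 11.4 FPKM) and *Klf11* (2.0 and 8.21 FPKM), and *Cebpa*, a liver and adipocyte transcription factor, fell (124 and 67.5 FPKM), against 2 that rose and 3 that fell after scaling. Of 21 adrenergic genes 3 rose, *Rgs2*, *Pnpla2* and *Pde4d*, and 1 fell, on both of these scales, and *Rgs2* and *Pde4d* reached the minimum for testing only in LKO libraries. Of 13 carriers 4 rose, among them *Slc25a34* (1.73 and 5.30 FPKM), *Slc25a4* (4.63 and 10.6 FPKM) and *Slc25a47* (178 and 362 FPKM). After scaling 2 rose and 1 fell, and *Slc25a47* lost its call (limma adjusted p = 0.068). Of 12 genes of UCP1-independent heat production 3 rose, *Alpl*, *Slc6a8* and *Ckb*, on either scale, and 1 fell after scaling only. After quantile normalization 3 brown and beige genes rose and 0 fell, and 2 adrenergic genes and 3 carriers rose and 1 of each list fell. Of the 4 other elongases tested, 0 passed.

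In the hypothalamus 0 of the 6 tested members (*Ucp2*, *Ucp3*, *Cidea*, *Dio2*, *Prdm16*, *Ppargc1a*) passed either limma criterion or had an unadjusted p under 0.05, and the genotypes overlapped for all 10, while 9.7% of genes tested were without overlap. Of the 13828 genes tested, 0.333% passed the unadjusted and 0.0217% the adjusted criterion, and 515 (3.72%) had an unadjusted p under 0.05. *Ucp2* measured 45.3, 66.2 and 73.1 FPKM in Ctrl and 74.8, 70.9 and 73.3 FPKM in LKO, with Ctrl replicate 1 below the other 5 libraries (log2 fold change 0.27, SE 0.16, limma adjusted p = 0.999). The other 5 tested members had log2 fold changes between -0.12 and 0.02.

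Whether an effect differed between iWAT and another tissue was tested as an interaction in a limma fit of all 24 libraries, for members that could be tested in both tissues. Of the 15849 genes in this fit, 34.7% had an adjusted p under 0.05 for iWAT against liver, 0.41% for iWAT against GM and 0.833% for iWAT against hypothalamus. The LKO effect on *Elovl3* in iWAT minus that in liver was 5.18 on the log2 scale (SE 0.51, limma adjusted p = 9.8e-07). *Elovl3* could be tested in iWAT only because the LKO libraries reached 1 FPKM, which fixed the sign of its iWAT effect, so the part of this difference that comes from iWAT is not independent of the filter. The same difference was -0.97 for *Ppargc1a* (SE 0.24, limma adjusted p = 0.0041) and -1.23 for *Ucp2* (SE 0.41, limma adjusted p = 0.026), and both lost the call after median-ratio scaling (adjusted p = 0.073 and 0.088). *Adrb3* did not pass (difference 1.22, SE 0.56, limma adjusted p = 0.096). This SE came from a variance shared with GM, while fits of single tissues gave 0.16 in iWAT, 0.18 in liver and 0.61 in GM. Without LKO replicate 1 of GM the limma adjusted p of this difference was 0.023. Between iWAT and GM 0 members passed, *Ucp3* coming nearest with a difference of -1.56 (SE 0.38, limma unadjusted p = 0.00057, adjusted p = 0.080), and between iWAT and hypothalamus 0 passed, the smallest adjusted limma p being 0.329 for *Dio2*.

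**Figure D4:**
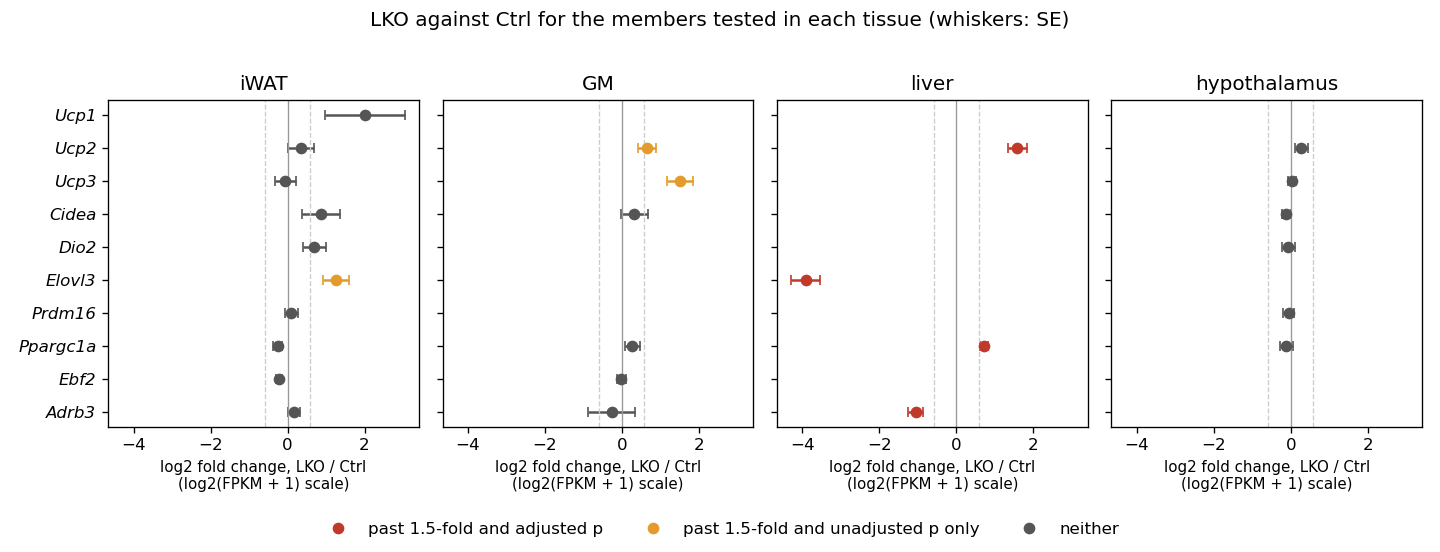
Log2 fold change of LKO against Ctrl with its SE (whiskers) for every member tested in a tissue, 1 panel per tissue, with dashed lines at 1.5-fold, red points past the adjusted criterion, orange points past the unadjusted criterion only and gray points past neither. All 4 liver points are red, *Elovl3* in iWAT and *Ucp2* and *Ucp3* in GM are orange, and *Ucp1* in iWAT has the widest error, an SE of 1.03.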

How the data were processed

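RNA was sequenced from 24 libraries, 3 for each of 2 genotypes in 4 tissues, prepared with a kit that does not mark strand. The authors deposited a joined table of FPKM per gene and, for each library, a table of FPKM, TPM and coverage per gene on mm10. Reads were processed with FastQC 0.11.5, Trimmomatic 0.32, HISAT2 2.0.5, Bowtie2 2.2.6, STAR 2.5.2b and StringTie 1.3.3b, as named without their roles in the submitters' processing notes. FPKM and TPM are not counts, so no count test was run.

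A gene entered the test of a tissue if 3 or more of its 6 libraries reached 1 FPKM, and was tested on log2(FPKM + 1) with limma 3.58.1 (lmFit and eBayes with trend, R 4.3.3), each tissue alone, two-sided, with Benjamini-Hochberg adjustment over all genes tested in the tissue. The unadjusted criterion required a fold change of at least 1.5 and p under 0.05, the fold taken from the study, and the adjusted criterion required the same fold change and an adjusted p under 0.05. Differences between tissues were tested as interactions in 1 fit of all 24 libraries. Such a fit shares the variance of a gene over the tissues, which differ in spread. The fit within a tissue was run on simulated iWAT libraries with known changes and independent normal noise. Outlying libraries, the filter and the fit of all 24 libraries were not simulated. How the study tested its calls is not given in the sources used here. Depth was the median ratio of deposited coverage to FPKM. Where another tissue's RNA was estimated, its marker sum was divided by the mean sum in the source tissue of the same genotype and multiplied by the gene's mean there.

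The 10 genes, the pathway lists and the marker lists were chosen with earlier results of these data known. Named beside the members, in iWAT, GM and liver, are up to 3 genes of each pathway list with the largest fold change past the unadjusted criterion, the 5 tested genes nearest to *Ucp1* in iWAT, *Ucp3* in GM and *Ucp2* in liver, markers whose sum moved with a group, and *Gadd45gip1*, except a gene that is not reported here. A comparison of the 3 proteins planned from a protein table was replaced by coding sequences of GENCODE vM21 transcripts, aligned globally. Alternatives were another pseudocount, filters, TPM, scalings, variances, a shared fit, a replicate block and single libraries left out.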

Additional observations from a re-analysis of the deposited data

Results flagged for a closer look

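The LKO effects on 3 members differed between iWAT and liver by the interaction test (limma, all 24 libraries in 1 fit, adjusted p under 0.05). For *Elovl3* the difference, iWAT minus liver, was 5.18 on the log2 scale, with all 3 LKO libraries above Ctrl in iWAT and all 3 below Ctrl in liver. In iWAT the gene reached the minimum for testing only in LKO libraries (0.508, 0.548 and 0 FPKM in Ctrl), which fixed the sign of its effect there, so the iWAT side of this difference is not independent of the filter. For *Ppargc1a* it was -0.97, the gene being higher in all 3 LKO libraries of liver and overlapping in iWAT. Median-ratio scaling brought this difference to -0.69 (limma adjusted p = 0.073) and quantile normalization to -0.53 (adjusted p = 0.149). For *Ucp2* it was -1.23, higher in all 3 LKO libraries of liver and overlapping in iWAT. Its adjusted limma p was 0.088 after median-ratio scaling and 0.139 after quantile normalization, and lay between 0.057 and 0.090 when LKO replicate 3 of liver or Ctrl replicate 2, Ctrl replicate 3 or LKO replicate 1 of iWAT was left out.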

How the results depend on the processing

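Of the member values within a tissue, 140 of 146 in iWAT, 79 of 87 in GM, 56 of 58 in liver and 81 of 87 in hypothalamus kept their direction and their side of the adjusted threshold. Fits of all 24 libraries took *Elovl3* in iWAT and *Ucp3* in GM past the adjusted criterion, *Ppargc1a* in liver lost its call under both scalings, and *Ucp2* in GM lost its unadjusted call with ordinary variances (unadjusted p = 0.098). Values that changed sign belonged to members that did not pass in that tissue or for that difference. With single libraries left out, log2 fold changes in iWAT ranged from -0.38 to 0.13 for *Ucp3* and from -0.030 to 0.21 for *Prdm16*, in GM from -0.89 to 0.21 for *Adrb3* and from -0.087 to 0.057 for *Ebf2*, which was 0.00037 after median-ratio scaling and 0.0086 after quantile normalization, and in hypothalamus from -0.045 to 0.12 for *Ucp3*, from -0.25 to 0.11 for *Dio2*, from -0.20 to 0.017 for *Prdm16* and from -0.25 to 0.075 for *Ppargc1a*. Differences of effects ranged from -0.049 to 1.05 for *Adrb3* (iWAT minus GM), and from -0.27 to 0.35 for *Ucp2* and -0.40 to 0.11 for *Ucp3* (iWAT minus hypothalamus).

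Counts of genes past the unadjusted criterion ranged with single libraries left out from 312 to 619 in iWAT (399 in full), 81 to 210 in GM (98), 2289 to 4332 in liver (3168) and 37 to 70 in hypothalamus (46), and those past the adjusted criterion from 0 to 110 (0), 0 to 9 (0), 1804 to 4325 (3006) and 0 to 9 (3). Unadjusted counts were 178 in GM and 86 in hypothalamus with pseudocount 0.1, 61, 1915 and 27 in GM, liver and hypothalamus where the mean had to reach 5 FPKM, 156, 4956 and 88 with TPM, and 57 in GM and 21 in hypothalamus with ordinary variances, and 1913 in liver after quantile normalization. Adjusted counts in iWAT were 14 after median-ratio scaling, 15 after quantile normalization and 317 in the shared fit, which gave 22 in GM and 9 in hypothalamus. Adjusted counts in liver were 1776 where it had to reach 5 FPKM, 4822 with TPM, 1896 after median-ratio scaling, 1645 after quantile normalization and 1499 with ordinary variances. In hypothalamus they were 0 without a filter, 1 with TPM and 0 with ordinary variances. The cause of these changes was not tested.

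Same-numbered libraries of the 2 genotypes did not deviate together in every pair (correlations from -0.135 to 0.354), so the numbers were not taken to pair the libraries. A batch shared by some of them was not tested: in iWAT replicate 1 was the deepest library of both genotypes (7.95 and 7.58 gigabases, the others from 4.63 to 5.22). With the replicate number as a block the unadjusted counts were 433 in iWAT, 145 in GM, 3210 in liver and 48 in hypothalamus and the adjusted counts 0, 0, 3031 and 0, and every sample correlated best with its own number in none of the 4 tissues. The block took the difference of effects on *Ucp3* between iWAT and GM past the threshold (limma adjusted p = 0.0040) and, by the unadjusted criterion in iWAT, *Cidea* and *Dio2* (limma unadjusted p = 0.041 and 0.048), and changed no other member's call. That difference for *Ucp3* also passed without LKO replicate 1 of iWAT (limma adjusted p = 0.0068) and without Ctrl replicate 2 or LKO replicate 1 of GM (0.027 and 0.020), as did those for *Dio2* between iWAT and hypothalamus without LKO replicate 2 of iWAT (0.014) and for *Adrb3* between iWAT and liver without LKO replicate 1 of GM (0.023).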
